A study of Mus musculus with 3 samples.

Results

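The cytosolic ribosomal protein genes of the mouse were taken by symbol from the protein-coding genes of the RefSeq annotation of GRCm38.p6, the patch release of the mm10 build to which the peaks were mapped: every Rpl or Rps symbol followed by a digit, with Rpsa, Rplp0, Rplp1 and Rplp2, and without the Rps6k kinases. The rule took 91 of 21887 protein-coding genes. Of these, 77 encode canonical proteins of the cytosolic ribosome, 31 in the small (40S) and 46 in the large (60S) subunit. The other 14 are 10 paralogs, 3 retrogene-like genes and Rps19bp1, which encodes a partner of RPS19 and no ribosomal protein.

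The peaks came from CUT&Tag, in which an antibody tethers the Tn5 transposase to chromatin so that DNA near the bound protein is cut and sequenced. Otocysts, the vesicles that become the inner ear, were dissected from wild-type mouse embryos at E10.5, 34 of them were pooled and dissociated with Accutase, and the cells were divided into 3 libraries: anti-CHD7, anti-SOX2 and no primary antibody. CHD7 is a chromatin remodeller mutated in CHARGE syndrome and SOX2 a transcription factor of otic progenitors. Each antibody had 1 library from the same pool, so no difference has a replicate check and no test was made. The control library was not analysed here.

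Ribosomal proteins assemble with ribosomal RNA in the nucleolus into the subunits that translate every mRNA of the cell. Their genes are short, are expressed in nearly all tissues at very high levels, and mostly start in CpG-rich promoters at a pyrimidine tract, the 5′ terminal oligopyrimidine (TOP) motif, through which mTOR signalling controls the translation of their mRNAs. Loss of 1 copy of several of them causes Diamond-Blackfan anaemia, and CHD7 is known for a role in ribosomal RNA synthesis in the nucleolus.

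An end peak is a peak with at least 1 base within 1 kb of either border of the gene. By this measure 48 of the 91 genes (52.7%, exact 95% interval 42.0 to 63.3) had a CHD7 end peak, against 30.8% of all protein-coding genes. A SOX2 end peak was found at 64 of them (70.3%, 59.8 to 79.5), against 59.7% of all. Both lists had an end peak at 43 genes (47.3%, 36.7 to 58.0), against 28.3% of all, and at 41 of these the CHD7 and SOX2 peaks shared bases. The intervals treat genes as draws and reads as molecules, which PCR reads without molecular identifiers are not, so they cover counting error only. Of the remaining genes, 5 had CHD7 alone, 21 had SOX2 alone and 22 had neither. Over all 21887 protein-coding genes these counts were 550, 6877 and 8268. Among the genes with a CHD7 end peak, 89.6% also had SOX2, close to the 91.8% of all protein-coding genes.

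Within the canonical genes, the shares of each subunit fell inside the interval of the other. CHD7 lay at 18 of 31 small-subunit genes (58.1%, 39.1 to 75.5) and at 28 of 46 large-subunit genes (60.9%, 45.4 to 74.9). SOX2 lay at 23 of 31 (74.2%) and 35 of 46 (76.1%). The 14 other genes had fewer, CHD7 at 2 (14.3%, 1.78 to 42.8) and SOX2 at 6 (42.9%, 17.7 to 71.1). Gene length differed from the rest of the genome, with a median of 3175 bases against 17169 for all protein-coding genes. Coding genes between the 91 genes' shortest and longest lengths had CHD7 end peaks at 25.6% and SOX2 at 52.9%.

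**Figure D1:**
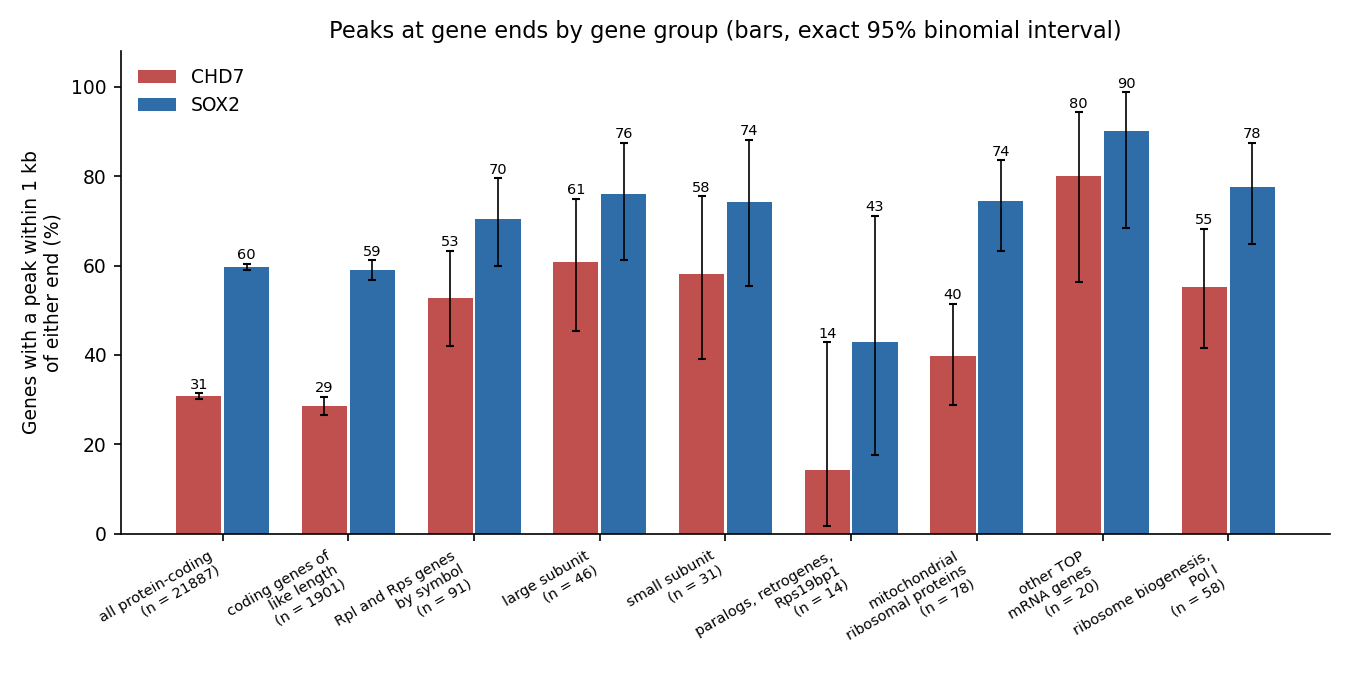
Percent of genes with a CHD7 (left bars) or SOX2 (right bars) peak within 1 kb of a gene end, by gene group, with exact 95% binomial intervals as error bars. Bars of both ribosomal subunits stand near 60% for CHD7 and 75% for SOX2, and the bars of all protein-coding genes at 30.8% and 59.7%.

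The strength of the end peaks was then compared with the background within each list. Each peak carries the authors' own total signal, used here only to rank peaks within a list (33035 CHD7 and 155548 SOX2 peaks). When an end peak had to be among the 10000 strongest of its list, 13 of the 91 genes had CHD7 (14.3%, against 13.4% of all protein-coding genes) and 16 had SOX2 (17.6%, against 17.1%). An end peak below that rank, and none above it, was found at 35 genes for CHD7 (38.5%, against 17.4%) and at 48 for SOX2 (52.7%, against 42.6%). The shares with a peak among the 10000 strongest were therefore near the background, and those with only a lower-ranked peak above it. Rank 10000 stands at percentile 69.7 of the CHD7 list and 93.6 of the SOX2 list. The cut is thus stricter for SOX2, and a SOX2 peak below it can still stand high in its list. The count with both marks among the 10000 strongest was 6 (6.59%, against 9.17% of all genes), a difference of few genes for which no interval was computed. With the stronger 50% of each list, CHD7 lay at 25 genes (27.5%, against 19.2%) and SOX2 at 58 (63.7%, against 47.7%). The gap to the background was then narrower for CHD7 and wider for SOX2 than with all peaks.

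Taken over both gene borders, the CHD7 end peaks ranked lower in their list than those of all coding genes, and the SOX2 end peaks did not. The 51 CHD7 end peaks of the ribosomal protein genes had total signals between 437 and 3698 with a median of 651. Their median percentile in the CHD7 list was 49.9, against 59.4 for the end peaks of all coding genes, and 3 of them (5.88%) were in the strongest 10% of the list, against 11.8%. The 85 SOX2 end peaks had a median percentile of 76.3, against 74.2, and 28.2% were in the strongest 10%, against 29.1%. At annotated starts alone, the median percentiles were closer for CHD7, 58.95 (30 peaks) against 60.59 for all coding genes. Of these CHD7 peaks 3.33% were in the strongest 10%, against 11.7%. For SOX2 the start medians were 84.7 and 81.2. Of the CHD7 end peaks, 43 (84.3%, 71.4 to 92.98) overlapped a SOX2 peak, against 85.7% over all genes. With the SOX2 list cut to as many of its strongest peaks as there are CHD7 peaks, the share was 54.9%, against 67.1%. Of the SOX2 end peaks, 44 (51.8%, 40.7 to 62.7) overlapped a CHD7 peak, against 35.01%.

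Small-subunit genes are described first, beginning with those marked by both proteins. Rps29, which encodes a zinc-binding protein of the 40S head (chromosome 12, 69157722 to 69159186), had the strongest CHD7 and the strongest SOX2 end peak of all 91 genes. The CHD7 peak (69158401 to 69160050) had a total signal of 3698, at percentile 98.3, and the SOX2 peak (69158651 to 69159850) had 22256, at percentile 99.9. Both lay over Rn7s1, a gene of the 7SL RNA of the signal recognition particle whose border is next to Rps29, so the peaks cannot be assigned to 1 of the 2 genes. Rn7s1 is a repeated RNA gene transcribed by RNA polymerase III, and the sources used here do not say how the authors handled reads that map to several copies.

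Promoter sequences were available for 70 of the 91 genes. For the first members by rank that had both marks, and for members with neither, the 100 bases before the start and the first 20 transcribed bases are shown, so that the letters under the peaks can be compared with those where none was called. Sequences are from RefSeq (GRCm38.p6), 5′ to 3′ on the gene's strand. Capitals mark CCGGAAG (the core of ETS factor sites), GGGCGG (SP1), CACGTG (E-box) and ACAAT (SOX) on either strand.
Rps25: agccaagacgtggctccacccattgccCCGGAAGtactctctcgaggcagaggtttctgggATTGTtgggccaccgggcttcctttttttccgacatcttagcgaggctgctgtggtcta
Rps21: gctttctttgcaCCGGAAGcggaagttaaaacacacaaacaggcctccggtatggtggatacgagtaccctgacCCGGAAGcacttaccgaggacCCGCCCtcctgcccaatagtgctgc
Rps23: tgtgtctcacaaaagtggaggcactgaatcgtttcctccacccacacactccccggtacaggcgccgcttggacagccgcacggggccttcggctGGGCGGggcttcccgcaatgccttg
Rps15: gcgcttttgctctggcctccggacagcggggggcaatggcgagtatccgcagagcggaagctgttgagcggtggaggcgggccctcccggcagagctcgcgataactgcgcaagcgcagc
Rps28: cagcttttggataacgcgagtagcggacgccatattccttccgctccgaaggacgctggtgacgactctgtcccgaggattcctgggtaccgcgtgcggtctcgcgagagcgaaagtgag

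Rps25, Rps21 and Rps23 had both marks, and Rps15 and Rps28 had neither. These stretches lie at chr9:44407614-44407733 (Rps25, plus strand), chr2:180257279-180257398 (Rps21, plus), chr13:90923022-90923141 (Rps23, plus), chr10:80292331-80292450 (Rps15, plus) and chr17:33824543-33824662 (Rps28, minus). Rps25 has an ETS core 73 bases before the start and a SOX core at 39. Rps21 has ETS cores at 88 and 26 and an SP1 site at 5 bases before the start, and Rps23 an SP1 site at 5. None of the marked letters occurs in the stretches of Rps15 and Rps28.

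Rps25 encodes a 40S protein used in initiation from viral internal ribosome entry sites. Its CHD7 peak (chromosome 9, 44406801 to 44408000) had a total signal of 1170 at percentile 83.7, and its SOX2 start peak had 4457 at percentile 98.1. Both peaks also lay over Trappc4, which borders Rps25, and a weaker SOX2 peak of 880 lay at the other end over Ccdc84, which overlaps it. Rps21 carried a CHD7 peak of 884 (percentile 72.2) and a SOX2 peak of 2639 (percentile 94.1), which shared the promoter and lay over the microRNA gene Mir3091. Rps23, a protein of the decoding centre, carried 710 (percentile 57.1) and 2463 (percentile 93.3), with no other gene under either peak. Of these 3 genes, Rps25 had the highest percentile in both lists.

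Rps19, the gene most often mutated in Diamond-Blackfan anaemia, had a CHD7 peak of 829 across its start and a SOX2 peak of 1701 just before it. Both marks were also found at Rps10, Rps12, Rps14, Rps15a, Rps20 and Rps27a, the last encoding a fusion with ubiquitin. Their summed end signals ran from 506 at Rps15a to 979 at Rps27a for CHD7, and from 821 at Rps10 to 2756 at Rps14 for SOX2, all below those of Rps25.

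CHD7 without SOX2 was found at 4 small-subunit genes, all with peaks below the median of the CHD7 list. Rps3, whose protein sits at the mRNA entry channel, had a CHD7 start peak of 619 at percentile 45.1. A SOX2 peak lay within the gene but not within 1 kb of its ends. Rps9 had 528 at percentile 27.3, and its nearest SOX2 peak was 9604 bases from the gene. Rps13 had 451 at percentile 6.74, with the nearest SOX2 peak 4057 bases away. The peak of Rps18, 437 at percentile 2.08, lay past its far end over B3galt4 and not at its start.

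SOX2 without CHD7 was found at 9 small-subunit genes. The highest end signals were 2346 at Rps26, 1877 at Rps7, 1730 at Rps24 and 1466 at Rpsa, which encodes the 40S protein also known as the laminin receptor. The nearest CHD7 peak was 108148 bases from Rps7 and 108628 bases from Rps24, so these promoters lie far from any called CHD7 peak. Lower summed SOX2 signals, 821 to 1349, stood at Rps27, Rps6, Rps16 and Rps2. Rps6 encodes the 40S protein phosphorylated by S6 kinase. Neither mark was found at 4 genes: Rps15, Rps28, Rps3a1 and Rps4x.

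**Figure D2:**
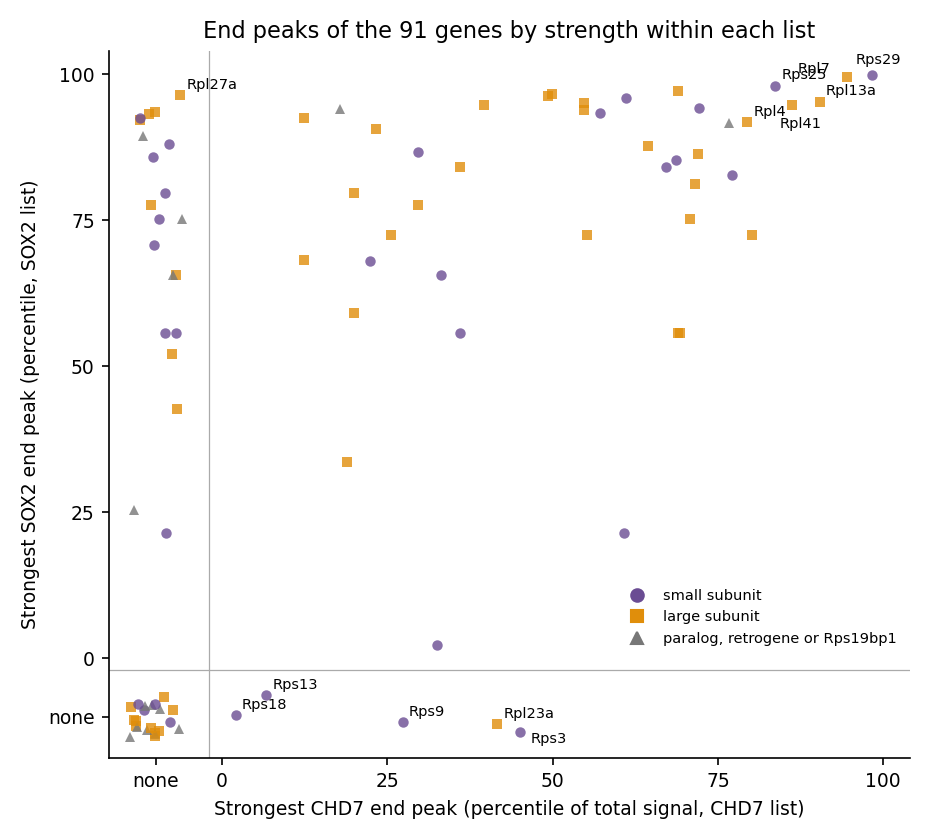
Each point is 1 of the 91 genes, placed by the percentile of its strongest CHD7 end peak (x axis) and SOX2 end peak (y axis) among all peaks of the same list, with genes lacking a peak in the strips marked none (spread at random within the strip). Rps29 and Rpl7 sit at the upper right, and the 5 genes with CHD7 alone lie left of percentile 50 on the x axis.

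In the large subunit, Rpl7 (chromosome 1, 16101295 to 16104433), a 60S protein, had the strongest single peaks of its subunit in both lists. Its CHD7 peak (16104151 to 16106850) had a total of 2100 at percentile 94.6, and its SOX2 peak (16104151 to 16106600) had 9002 at percentile 99.5. Both extended over Rdh10, the retinol dehydrogenase gene beside it, which is itself active in retinoic acid synthesis in embryos, and the maximum cannot be assigned to either gene from the peak borders. Rpl13a, a protein released from the ribosome to silence inflammatory mRNAs, had a CHD7 start peak of 1562 (percentile 90.4) and a SOX2 start peak of 2932 (percentile 95.3), with no other gene under them. With its second CHD7 peak, Rpl13a had a summed CHD7 end signal of 2131, slightly above that of Rpl7.

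The large-subunit sequences are shown for the same reason and with the same capitals.
Rpl13a: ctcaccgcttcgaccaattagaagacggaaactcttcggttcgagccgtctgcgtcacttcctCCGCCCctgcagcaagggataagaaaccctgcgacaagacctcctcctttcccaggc
Rpl38: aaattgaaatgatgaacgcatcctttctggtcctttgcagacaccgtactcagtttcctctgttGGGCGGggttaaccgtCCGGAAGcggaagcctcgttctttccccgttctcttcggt
Rpl41: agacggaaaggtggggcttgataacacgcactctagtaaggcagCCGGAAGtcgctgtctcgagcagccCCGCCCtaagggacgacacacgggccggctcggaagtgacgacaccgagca
Rpl23: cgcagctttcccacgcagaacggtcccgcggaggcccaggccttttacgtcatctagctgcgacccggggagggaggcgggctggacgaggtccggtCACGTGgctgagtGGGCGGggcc
Rpl28: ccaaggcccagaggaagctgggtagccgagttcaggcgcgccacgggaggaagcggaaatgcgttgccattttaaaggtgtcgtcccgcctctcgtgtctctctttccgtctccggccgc

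Rpl13a (chr7:45128726-45128845, minus strand), Rpl38 (chr11:114668480-114668599, plus) and Rpl41 (chr10:128549149-128549268, minus) had both marks. Rpl23 (chr11:97782420-97782539, minus) and Rpl28 (chr7:4792865-4792984, plus) had neither. All 3 with both marks hold an SP1 site, at 37, 36 and 31 bases before the start, and Rpl38 and Rpl41 an ETS core at 20 and 56. Rpl23 has an E-box at 3 bases before the start and an SP1 site inside the transcribed bases. Rpl28 has none of the marked letters, although its first transcribed bases are a TOP tract.

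Rpl38, a protein needed for the translation of certain Hox mRNAs and mutated in the Tail-short mouse, had a CHD7 peak of 879 and a SOX2 peak of 1378 at its start. Further SOX2 peaks of 762 and 1759 lay beyond its outer borders, the second near Ttyh2. Rpl41 encodes the shortest ribosomal protein. Its stronger peaks, 1289 for CHD7 and 2756 for SOX2, lay over the neighbouring gene Zc3h10, and weaker ones of 633 and 762 were centred on its own start. Rpl15 carried 833 and 3695 over the border it shares with Nkiras1. A further 18 large-subunit genes, apart from those of the stalk, had both marks: Rpl3, Rpl4, Rpl10, Rpl10a, Rpl12, Rpl18, Rpl19, Rpl21, Rpl27, Rpl29, Rpl30, Rpl34, Rpl35, Rpl35a, Rpl36, Rpl36a, Rpl37 and Rpl39. Their summed end signals ran from 469 to 1143 (Rpl36) for CHD7 and from 880 (Rpl12) to 3753 (Rpl21) for SOX2. The CHD7 end peaks of Rpl4, Rpl18 and Rpl19 lay away from their annotated starts, over Snapc5, Sphk2 and Cacnb1. Rpl19 also had a CHD7 peak at its annotated starts, which lie inside the gene. The SOX2 end peak of Rpl12 was not at its start.

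The acidic stalk that recruits elongation factors is built from Rplp0, Rplp1 and Rplp2, and all 3 genes had both marks at an end. The CHD7 peak of Rplp0 lay past its far end over Gcn1 and not at its start. Rplp0 had a CHD7 end signal of 519 and a summed SOX2 end signal of 2492. Rplp1 had 838 and 1056, and Rplp2 had 496 and 1466. The CHD7 percentiles of the 3 genes ran from 20.04 to 69.2. Among the X-linked genes, Rpl10, Rpl39 and Rpl36a had both marks and Rps4x had neither.

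Rpl23a was the single large-subunit gene with CHD7 alone, with 601 at percentile 41.6 and the nearest SOX2 peak 1917 bases away. SOX2 alone was found at 8 large-subunit genes. Rpl27a had a SOX2 start peak of 3313 at percentile 96.4 and the nearest CHD7 peak 180982 bases away. Rpl5, which joins the 5S RNA and RPL11 in the particle that restrains MDM2, had 2287, whereas its partner Rpl11 had neither mark. Rpl7a had 2 SOX2 peaks with a summed signal of 4105, the larger over Med22, and Rpl22 had 2 with a sum of 3343. Lower SOX2 sums, 938 to 1407, stood at Rpl26, Rpl31, Rpl32 and Rpl8. The 10 large-subunit genes with neither mark were Rpl6, Rpl9, Rpl11, Rpl13, Rpl14, Rpl17, Rpl23, Rpl24, Rpl28 and Rpl37a.

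**Figure D3:**
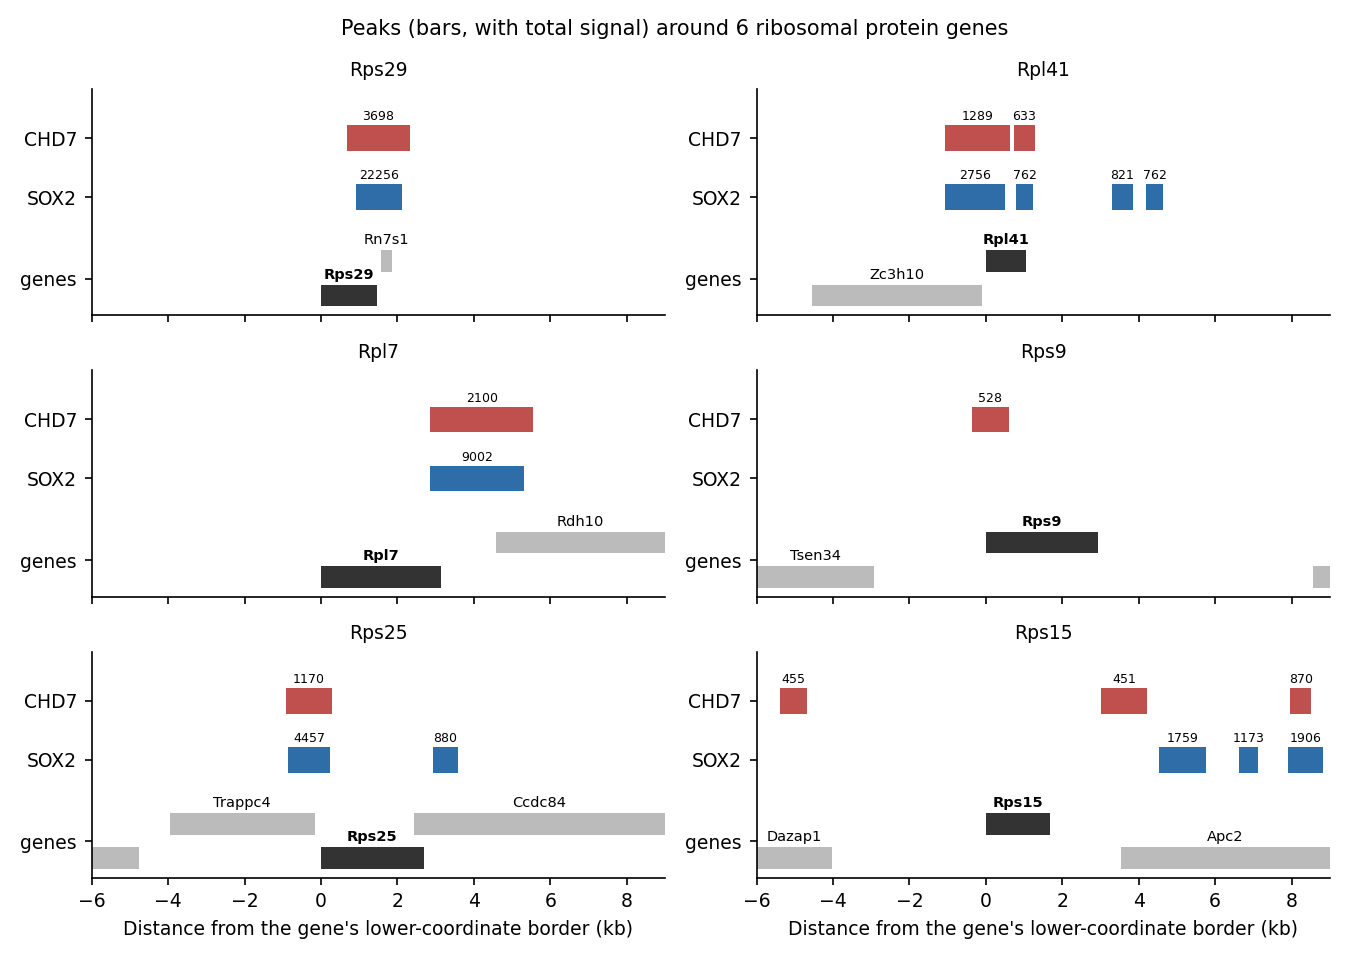
Genes and peaks around Rps29, Rpl7, Rps25, Rpl41, Rps9 and Rps15, drawn by distance in kb from the lower-coordinate border of the named gene, with the total signal of each peak beside it. Peaks of Rps29 lie over Rn7s1 and those of Rpl7 over Rdh10, Rps9 has CHD7 without SOX2, and no peak lies within 1 kb of Rps15.

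Of the 10 paralogs, 2 had both marks and 3 had SOX2 alone. Rpl22l1, the paralog of Rpl22, had a CHD7 start peak of 487 and a SOX2 start peak of 2610, and Rps27l, a target of p53, had 970 and 2229. SOX2 alone was found at Rpl36al (1994, over Mgat2), at Rpl3l (1349), the striated-muscle form of RPL3, and at Rpl10l (1173 and 733), a testis form of RPL10. The retrogene-like Rps23rg1 had a SOX2 peak of 821. The paralogs Rpl32l, Rpl39l, Rpl7l1, Rpl37rt and Rps27rt, the retrogene-like Rpl34-ps1 and Rpl31-ps12, and Rps19bp1 had no end peak.

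Peaks were placed on the promoters with the 70 genes that have an annotated start. CHD7 lay within 1 kb of the start at 29 of them (41.4%, against 31.0% of 17492 genes with a start), SOX2 at 43 (61.4%, against 54.9%) and both at 25 (35.7%, against 28.2%). At Rps2 the annotated start lies inside the gene, and a CHD7 peak lay within 1 kb of that start but not of either border. The 21 genes without an annotated start had end peaks more often, CHD7 at 16 (76.2%) and SOX2 at 18 (85.7%), than the 70 with one, at 32 (45.7%) and 46 (65.7%). Over all genes the shares with and without a start entry were 31.4% and 28.5% for CHD7. The start-based shares therefore leave out a well-marked portion of the genes, among them Rps29, Rpl7 and Rpl29.

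The CHD7 peaks were centred just before the start. The maximum of the CHD7 peaks lay a median of 110 bases upstream (30 peaks), with 24 of 30 (80%) upstream and 26 (86.7%) within 250 bases. Over all coding genes the median was 62.5 bases upstream, with 59.4% upstream and 63.4% within 250 bases. For SOX2 the median was 29.5 bases upstream (46 peaks, 67.4% within 250 bases), against 6.5 bases downstream for all genes (49.6% within 250 bases). By position, CHD7 peaks covered at most 40% of the 70 starts, at 100 bases upstream, and SOX2 peaks 52.9%, at the start itself, against 26.5% and 39.3% over all genes.

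**Figure D4:**
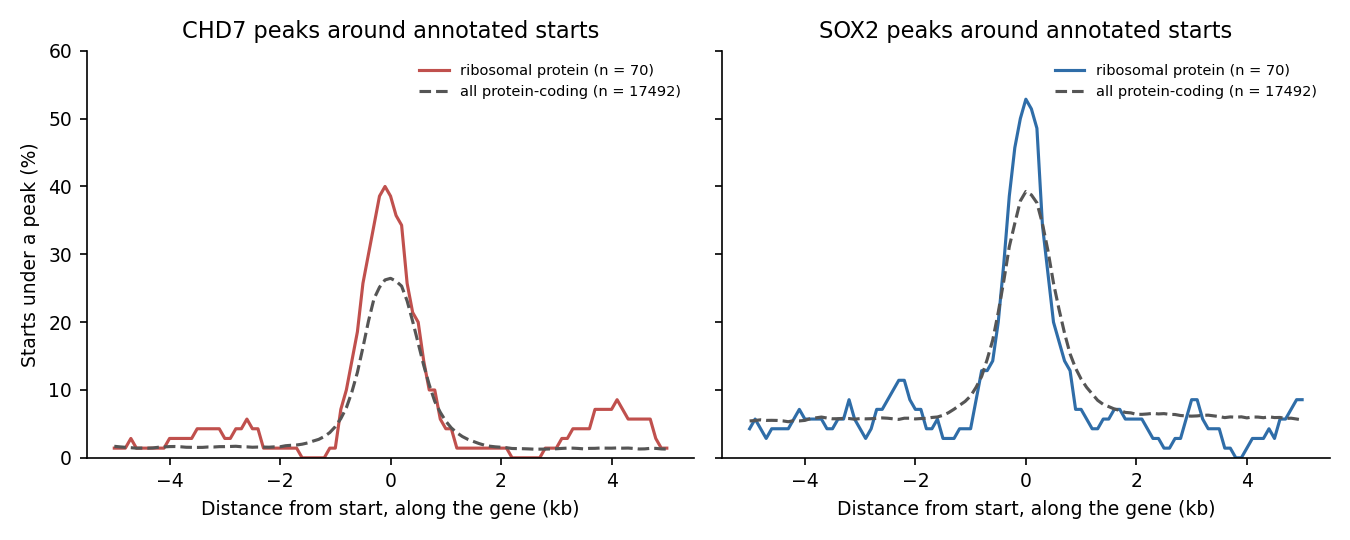
Percent of annotated starts covered by a CHD7 or SOX2 peak at each distance from the start (x axis, 5 kb on each side), for the 70 ribosomal protein genes and all 17492 genes with a start. The ribosomal protein curves rise to 40% (CHD7) and 52.9% (SOX2) beside the start, above the curves of all genes, which reach 26.5% and 39.3%.

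The CpG content of the promoters was compared as well. The canonical promoters had a median of 7 CpG per 100 bases, against 4.33 for all promoters. Among 3967 other genes with a promoter CpG content between the lower and upper quartiles of the canonical ones (5.67 to 8.67 per 100 bases), CHD7 lay at 51.3% of starts and SOX2 at 76.96%. The 57 canonical genes with a start, inside or outside that range, had 47.4% and 64.9%, so the groups are not matched gene for gene. These shares were no higher than those of the other genes in the range. The 20 canonical genes without an annotated start are left out. Their end peaks were more frequent, CHD7 at 80% and SOX2 at 90%, against 52.6% and 70.2% for those 57. Within the canonical genes the median CpG content was 7 with a CHD7 start peak and 7.5 without. For SOX2 start peaks it was 7 and 7.17. The part of CpG content in the shares was not tested further.

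Several short motifs were more frequent in the promoters of ribosomal protein genes than in all 17492 promoters of the same 300-base length, 250 bases before to 50 after the start. A TOP start, a C within 5 bases of the start followed by at least 4 pyrimidines on the gene's strand, was present in 45.6% of the 57 canonical genes and 18.8% of all. The ETS core CCGGAAG on either strand was present in 40.4% and 11.9%, GGGCGG (SP1) in 59.6% and 46.3%, and AAGATGGC (YY1) in 8.77% and 3.21%. A TATA box (TATAAA) was present in 10.53% and 13.3%, CACGTG (E-box) in 8.77% and 7.91%, and the NRF1 motif in 1.75% and 1.33%. None of these motifs contains another.

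The SOX cores ACAAT or ACAAAG, either strand, were present in 31.6% of the canonical promoters and 39.5% of all. They occurred in 35.1% of the 37 canonical genes with a SOX2 start peak and 25% of the 20 without, a difference of few genes. The ETS core occurred in 48.6% and 25% of the same groups. With CHD7 the split was wider for SP1, which occurred in 81.5% of the 27 canonical genes with a CHD7 start peak and 40% of the 30 without. The SOX cores occurred in 44.4% and 20% of these. The median GC content of the promoters was 60% with a CHD7 start peak and 56.5% without. Motif splits by start peak were not counted over all promoters, so they have no background. A match of letters is a description and no evidence of a bound factor.

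Other genes of ribosome production were compared at their ends. Of 20 genes that encode other proteins with TOP mRNAs, such as elongation factors, 16 had CHD7 (80%, 56.3 to 94.3) and 18 had SOX2 (90%). Of 58 genes of ribosome biogenesis and RNA polymerase I, 32 had CHD7 (55.2%, 41.5 to 68.3) and 45 had SOX2 (77.6%). The 78 mitochondrial ribosomal protein genes, which serve the organelle's own ribosome, had CHD7 at 31 (39.7%, 28.8 to 51.5) and SOX2 at 58 (74.4%). The 21 ribosomal protein genes known from Diamond-Blackfan anaemia had CHD7 at 11 (52.4%, 29.8 to 74.3) and SOX2 at 19 (90.5%, 69.6 to 98.8). The exceptions for SOX2 were Rpl11 and Rps28. The shares of all 77 canonical genes, 59.7% and 75.3%, fell inside these intervals. Over all protein-coding genes the shares were 30.8% for CHD7 and 59.7% for SOX2.

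Genes with a small nucleolar RNA inside, as many ribosomal protein introns have, were marked at 17 of 30 for CHD7 (56.7%) and 22 of 30 for SOX2 (73.3%). Those without had 31 of 61 (50.8%) and 42 of 61 (68.9%), within counting error. Proximity to other genes was wider: 32 of the 91 genes have another coding gene's end within 1 kb, and these had CHD7 at 19 (59.4%) and SOX2 at 25 (78.1%). The 59 without had 29 (49.2%, 35.9 to 62.5) and 39 (66.1%, 52.6 to 77.9), and the intervals overlap. Another coding gene's end lay within 1 kb of 19 of the 51 CHD7 end peaks (37.3%) and of 29 of the 85 for SOX2 (34.1%). Neighbouring ends were not counted for all coding genes, so these shares have no background.

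Wider loci were then compared. Counting all peaks in the gene and 50 kb on each side, the median was 2 CHD7 peaks (quartiles 1 and 4) and 10 SOX2 peaks (6.5 and 15), the same medians as over all protein-coding genes. No CHD7 peak lay in 11 of the 91 loci (12.1%, against 17.1% over all genes). Every locus held a SOX2 peak, as did all but 1.27% of the loci over all genes. Per 100 kb the loci held 2.60 CHD7 peaks against 1.68 over all genes, and 10.8 SOX2 peaks against 7.82. Coding genes between the lower and upper quartiles of the 91 genes' lengths held 2.16 and 9.45. Only peaks farther than 1 kb from any coding gene's end were then counted per 100 kb. The 91 loci held 1.02 CHD7 peaks against 1.02 over all genes, and 7.14 SOX2 peaks against 6.14. By median per locus the SOX2 order was reversed, 7 such peaks against 8 over all genes, and CHD7 had 1 in both.

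The fullest loci were those of Rpl29 (9 CHD7 and 30 SOX2 peaks) and Rps15 (8 and 27). Rps15 had no end peak, with the nearest CHD7 peak 1337 and the nearest SOX2 peak 2837 bases away, so a full locus did not go with a marked promoter there. Rps21 had 7 CHD7 and 20 SOX2 peaks. At 6 CHD7 peaks each stood Rpl41, Rps18 and Rpl10a, with 20, 16 and 13 SOX2 peaks. Rps19 had 4 and 20. Rpl22 had 30 SOX2 peaks with 4 CHD7 peaks, and Rplp2 had 21 with 3. Neighbouring members share part of these counts: Rps2 and Rpl3l share 3 CHD7 and 15 SOX2 peaks, and Rps29 and Rpl36al share 3 and 5.

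Of the 22 genes with neither mark at an end, the nearest CHD7 peak lay 1337 to 82797 bases away (median 24595) and the nearest SOX2 peak 0 to 37289 bases away (median 3970). In 3 of them a SOX2 peak lay inside the gene.

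**Figure D5:**
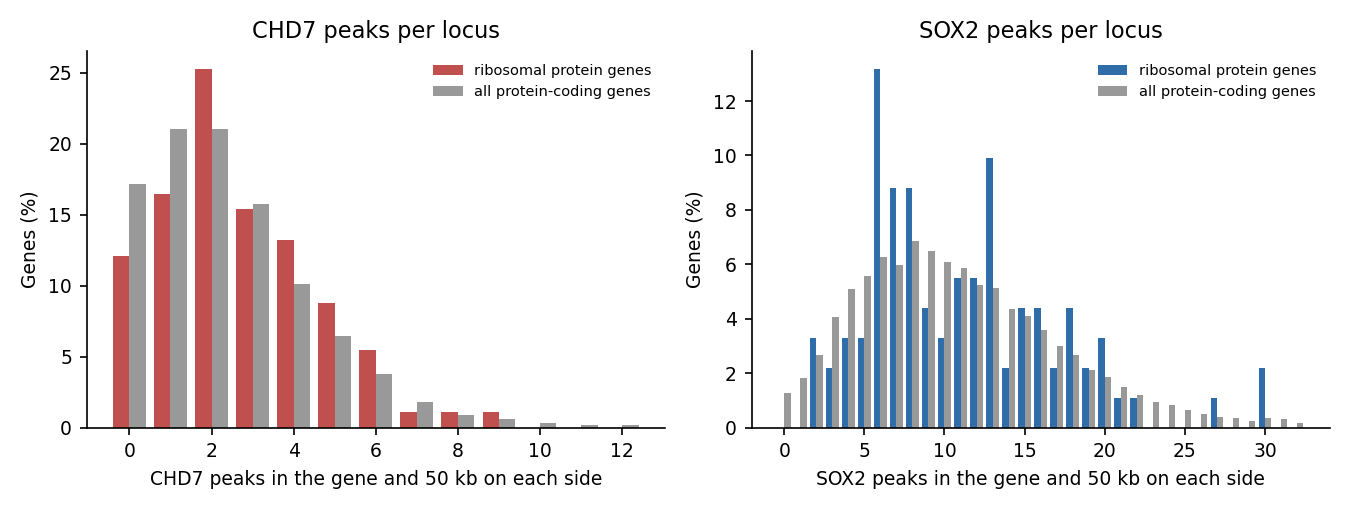
Number of genes, as percent of each group, by the number of CHD7 (left) and SOX2 (right) peaks in the gene and 50 kb on each side, for the 91 ribosomal protein genes and all protein-coding genes. The distributions overlap, with medians of 2 and 10 in both groups, and the axes stop before the highest counts over all genes.

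Peaks were also counted at the ends of marker genes of the tissue. Of 15 otic genes, 9 had CHD7 and 10 had SOX2 end peaks, but Pax2, Pax8, Hmx2 and Oc90 had neither. Among markers of other cell types, CHD7 lay at 1 of 8 blood, 0 of 6 endothelial, 2 of 6 muscle and 0 of 5 liver genes, and SOX2 at 4, 4, 4 and 2. The otic share for SOX2 (66.7%) was near the 59.7% of all coding genes and equal to those of the endothelial and muscle genes, so the SOX2 counts do not tell the tissue apart. For CHD7 the otic share was 60% (32.3 to 83.7), against 30.8% of all. The canonical ribosomal protein genes had 59.7%, so the CHD7 share does not single out otic genes. Peaks do not measure expression, and the part of other cell types in the ribosomal protein peaks, which any cell could contribute, was not tested.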

How the data were processed

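CUT&Tag libraries were sequenced as 150 bp paired ends. The authors deposited 1 peak list for each antibody; the submitters' processing notes name Bowtie2, deepTools, SEACR and the mm10 build, without versions. The deposited peak lists give each peak's total and maximum signal; the sources used here give neither its scaling nor the read depth, nor whether the control entered peak calling, so signals were ranked within a list and never compared between lists. The no-primary-antibody library was not analysed here. Peaks were matched to RefSeq genes (GRCm38.p6) with Python 3.11.15, pandas 2.3.3 and numpy 2.4.6, exact binomial intervals at 95% came from scipy 1.17.1, and figures from matplotlib 3.10.9. The matching was checked on simulated intervals. Percentiles are among all peaks of the same list.

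Members and lists were chosen with earlier results of these data known. Named in each subunit were the 6 genes with both marks that stood highest by the lower of their CHD7 and SOX2 ranks of end signal, all with CHD7 alone, the 4 highest with SOX2 alone, the 4 with neither and the most CHD7 peaks in the locus, the 3 with the most locus peaks of each list, and paralogs with an end peak; sequences were those of the first 3 with both and the first 2 with neither that have a promoter entry. Genes of the stalk, the X chromosome, Rps19 and the tissue check were added for their roles. Of the ribosome biogenesis list, 58 of 59 symbols matched. Some genes that the rule names are not reported here, although the counts include them.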

Additional observations from a re-analysis of the deposited data

How the results depend on the processing

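No paired analysis was possible because each antibody had 1 library. With windows of 500 bases or 2 kb, with the 77 canonical genes alone, and where both marks had to share bases, the counts of 48 genes with CHD7, 64 with SOX2 and 43 with both stayed within 1.5 times. Annotated starts alone, with 70 genes, gave 29 for CHD7 and 25 for both. The stronger 50% of each list gave 25 for CHD7 (27.5%, against 19.2% of all genes), 58 for SOX2 (63.7%, against 47.7%) and 24 for both (26.4%, against 17.7%). The 10000 strongest peaks gave 13 (14.3%, against 13.4% of all genes), 16 (17.6%, against 17.1%) and 6 (6.59%, against 9.17%). The last is a difference of few genes, and no interval was computed for it. Leaving out genes near another coding gene's end gave 29, 39 and 26 of 59. The overlap share of 84.3% became 29.4% (26.4% over all genes) when maximum-signal regions had to share a base and 54.9% (67.1% over all genes) when only as many SOX2 peaks were kept, strongest first, as there are CHD7 peaks. Locus totals of 245 CHD7 and 1015 SOX2 peaks became 72 and 177 with 5 kb flanks, 433 and 1832 with 100 kb flanks, 96 and 674 away from coding ends, and 122 and 583 with the stronger 50% of peaks. The background of 30.8% and 59.7% became 25.6% and 52.9% in the genes' length range, 28.6% and 59.0% between their length quartiles, and 32.9% and 63.0% without olfactory and vomeronasal receptors. At starts, 31.0% and 54.9% became 51.3% and 76.96% among other genes within the quartiles of the canonical genes' CpG content. The canonical, shared-base, length-quartile and CpG alternatives were chosen after seeing the data. By construction these settings use fewer genes, fewer peaks or other windows; other causes were not tested. Depth per library is unknown, so a missing peak is no evidence of absence.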

Other observations

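Processed copies of ribosomal protein mRNAs form one of the largest families of mouse pseudogenes. Of 324 annotated ribosomal protein pseudogenes, 4 had a CHD7 peak within 1 kb of an end (1.23%, exact 95% interval 0.337 to 3.13) and 45 had a SOX2 peak (13.9%, 10.3 to 18.1). Over all 10442 pseudogenes the shares were 3.04% and 20.02%. The 4 with CHD7 were Rpl17-ps10, Rpl17-ps11, Rps15a-ps1 and Rpl26-ps4, and of these all but Rps15a-ps1 also had a SOX2 end peak.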
